A study of Homo sapiens with 12 samples.

Results

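Histone genes were followed across ASAP2 knockout and wild-type cells of a pair of pancreatic cancer lines. The genes were taken by symbol: those starting with HIST1H, HIST2H, HIST3H, HIST4H, H1F, H2AF or H3F, with a mean of at least 1 FPKM (fragments scaled for transcript length and library size) in at least 1 of the 4 groups. Of 83 symbols of this form among the 22650 symbols listed in any library, 44 reached that level: 32 HIST-named genes (1 for H1, 11 for H2A, 13 for H2B, 5 for H3 and 2 for H4) and 12 named as variants (3 for H1, 6 for H2A and 3 for H3). RNA sequencing covered 12 libraries in 4 groups of 3: ASAP2 knockout Panc1, wild-type Panc1, ASAP2 knockout MiaPaCa2 and wild-type MiaPaCa2. Both lines come from human pancreatic ductal adenocarcinoma, and ASAP2 is a GTPase-activating protein for Arf proteins. No drug or other treatment is named for any group. The knockout method, the number of clones and the source of the 3 libraries in each group (separate cultures or not) are not given in the labels, and p-values therefore reflect only the spread between these libraries, which may be technical.

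Histones are the proteins around which DNA is wound: H2A, H2B, H3 and H4 form the core of the nucleosome, and the linker histone H1 binds where the DNA enters and leaves it. The HIST-named genes lie in clusters, lack introns for the most part and are transcribed when DNA is replicated. Their mRNA ends in a conserved stem-loop in place of a poly(A) tail and is bound there by SLBP. The variant genes lie alone, are spliced for the most part, make polyadenylated mRNA at all stages of the cell cycle, and give proteins that replace the core ones at chosen places. Some HIST-named genes also make a polyadenylated mRNA that reads on past the stem-loop, among them HIST1H1C, HIST1H2AC, HIST1H2BD, HIST1H2BK and HIST2H2BE.

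The stem-loop was searched in the reference, since it is what sets the classes apart. Its letters, an arm of GGNNCT, a loop of TTTN and an arm of AGNNCC read without a gap, were looked for on the coding strand in the 200 bases after the stop codon (GRCh37, the hg19 assembly of the files). They occurred in 27 of the 28 HIST-named members with such a window, in 1 of 10 variants (H2AFX), and in 67 of 19988 windows of all coding genes (0.335%). HIST1H3E was the HIST-named member without a match. The sites below belong to the members whose values the results turn on, with 5 bases on each side and the 16 bases of the stem-loop in capitals.
HIST1H1C, chr6:26055967-26055992, minus strand: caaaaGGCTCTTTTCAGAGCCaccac
HIST1H2BK, chr6:27114140-27114165, minus strand: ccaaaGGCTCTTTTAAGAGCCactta
HIST1H2BD, chr6:26158810-26158835, plus strand: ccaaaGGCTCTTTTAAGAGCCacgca
HIST1H2AC, chr6:26124892-26124917, plus strand: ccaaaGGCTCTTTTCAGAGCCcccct
HIST2H2BE, chr1:149857733-149857758, minus strand: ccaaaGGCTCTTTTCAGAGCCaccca
HIST1H4H, chr6:26285354-26285379, minus strand: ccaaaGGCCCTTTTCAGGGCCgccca
HIST1H2AK, chr6:27805658-27805683, minus strand: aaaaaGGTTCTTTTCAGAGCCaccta
HIST2H2AC, chr1:149858936-149858961, plus strand: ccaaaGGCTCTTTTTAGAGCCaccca
H2AFX, chr11:118965603-118965628, minus strand: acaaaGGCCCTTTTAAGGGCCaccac
The sequence of HIST1H1C, HIST1H2AC and HIST2H2BE was the commonest, shared by 18 members. That of HIST1H2BK and HIST1H2BD was shared by 4 H2B members (HIST1H2BC, HIST1H2BD, HIST1H2BJ and HIST1H2BK), and that of HIST1H4H by the 2 H4 members. HIST1H2AG, HIST1H2AK, HIST2H2AC and H2AFX each had one of their own among the members. An annotated transcript ended at least 100 bases past the stem-loop in 11 of the 27 HIST-named members, HIST2H2BE, HIST1H2BD, HIST1H2AC and HIST1H4H among them, and also for H2AFX. For HIST1H1C and HIST1H2BK, the most abundant genes of the polyadenylated list, the annotation ended 4 and 5 bases past it.

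Upstream sequence was read for the same reason, because clustered histone genes share short promoter motifs. In the 250 bases before the RefSeq start (GRCh38.p14 promoter table), the octamer ATTTGCAT, the CCAAT box and TATAAA were searched on both strands, and a match was counted whether or not it overlapped another. The octamer was found in 17, CCAAT in 28 and TATAAA in 18 of 30 HIST-named members, against 1.66%, 33.04% and 11.13% of 27305 promoters. Of the variants, 1, 6 and 4 of 9 held them. By family the octamer stood in 8 of 11 H2A, 8 of 11 H2B, 1 of 5 H3, 0 of 2 H4 and 0 of 1 H1 promoters. The nearest 150 bases are shown for the most abundant H2B gene, for the H2B gene called most firmly in both lines, and for the H1 gene, with these motifs in capitals. The RefSeq sequences were placed on GRCh37 by exact match.
HIST1H2BK, chr6:27114638-27114787, minus strand: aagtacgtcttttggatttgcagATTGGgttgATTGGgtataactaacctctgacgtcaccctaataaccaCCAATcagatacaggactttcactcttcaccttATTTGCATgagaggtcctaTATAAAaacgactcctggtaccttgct
HIST2H2BE, chr1:149858233-149858382, minus strand: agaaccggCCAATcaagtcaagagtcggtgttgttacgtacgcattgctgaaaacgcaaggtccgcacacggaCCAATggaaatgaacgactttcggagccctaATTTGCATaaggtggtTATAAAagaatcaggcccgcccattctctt
HIST1H1C, chr6:26056699-26056848, minus strand: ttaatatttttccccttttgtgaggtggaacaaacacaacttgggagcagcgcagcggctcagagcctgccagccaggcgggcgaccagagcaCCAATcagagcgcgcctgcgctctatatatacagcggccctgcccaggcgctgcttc
Both H2B promoters held all 3 motifs in this stretch and the HIST1H1C promoter held CCAAT alone. A match describes the letters and shows no binding.

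The files list 17958 to 19105 genes per library with FPKM that sum to 360765 to 392610, and read depth is unknown. ASAP2 itself had 14.2, 14.5 and 12.7 FPKM in Panc1 knockout libraries, against 38.6, 37.5 and 34.6 FPKM in Panc1 wild-type libraries (log2 difference -1.36, SE 0.07, adjusted p = 1.5e-08). In MiaPaCa2 it had 12.01, 13.8 and 11.3 FPKM in knockout libraries and 13.2, 13.6 and 13.8 FPKM in wild-type libraries (log2 difference -0.13, SE 0.07, adjusted p = 0.197), so the mRNA level does not check the MiaPaCa2 labels. Of 7 epithelial markers 6 reached 1 FPKM, and their sum ran from 1141 to 1254 FPKM in Panc1 knockout, 1239 to 1274 FPKM in Panc1 wild-type, 873 to 902 FPKM in MiaPaCa2 knockout and 1227 to 1266 FPKM in MiaPaCa2 wild-type libraries. Sums of 4 fibroblast and 3 endothelial markers stayed at or below 0.838 and 0.034 FPKM. EPCAM was listed in no MiaPaCa2 library, and CDH1 averaged 0.01 FPKM in both MiaPaCa2 groups. Of 3 leukocyte markers PTPRC and CD3E were at or near 0, and CD68, which many cell types express, averaged 164 FPKM in Panc1 knockout, 175 FPKM in Panc1 wild-type, 18.7 FPKM in MiaPaCa2 knockout and 26.7 FPKM in MiaPaCa2 wild-type libraries. The part of the lower epithelial marker sum of MiaPaCa2 knockout in the histone values was not tested. MiaPaCa2 knockout replicate 2 held the lowest of the 3 knockout values in 18 of 31 listed HIST-named members and in 11 of 12 variants. Its HIST-named sum was 268 FPKM, beside 407 and 390 FPKM in the other MiaPaCa2 knockout libraries. Values without it are given where a named member's MiaPaCa2 call changes. Such ranks were not particular to this library. Panc1 knockout replicate 1 held the lowest knockout value in 22 of 32 HIST-named members. Among Panc1 wild-type libraries, replicate 3 was lowest in 19 of 32 HIST-named members and replicate 2 in 11 of 12 variants.

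Variants had the higher levels per length in the tables. Their 12 members summed to 0.2034% to 0.2654% of all FPKM of a library and the 32 HIST-named members to 0.0438% to 0.1041%. A group mean of at least 50 FPKM was reached by 9 variants but by only 2 HIST-named members, HIST1H2BK and HIST1H1C. The 9 include the pseudogene H3F3AP4, at 1.0188 to 1.0192 times the FPKM of H3F3A in every library. Sums and shares of the variants thus count the same reads again. The 12 also include H1FX-AS1, an antisense RNA that codes for no histone. HIST1H2BK alone held 31.7% to 44.2% and HIST1H1C 9.53% to 27.2% of the HIST-named sum. Just above the threshold of 1 FPKM stood HIST2H2BC (highest group mean 1.01 FPKM) and HIST1H4E (1.02 FPKM), and just below it HIST2H2BF (0.891 FPKM) and H3F3C (0.832 FPKM). Of the symbols below the threshold, 35 were HIST-named, and together they gave 4.61 ± 0.864 FPKM in Panc1 knockout and 4.15 ± 0.073 FPKM in Panc1 wild-type libraries. How reads without a poly(A) tail were kept is not given. Of 12 short RNAs that lack a tail, 3 (RN7SK, RN7SL1 and RN7SL2) were listed in no library and 4 passed the filter of the test.

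The summed level of the HIST-named members was higher in knockout libraries of both lines, and the sum of the variants was not. In Panc1 the HIST-named sum was 239.7, 256 and 280.2 FPKM in knockout libraries, against 175, 167 and 160.04 FPKM in wild-type libraries, a ratio of means of 1.54. In MiaPaCa2 it was 407, 268 and 390.2 FPKM in knockout libraries, against 189, 185 and 178 FPKM in wild-type libraries, a ratio of 1.93. No knockout library overlapped the wild-type libraries of its line, and MiaPaCa2 knockout replicate 2 lay closest to them. The 5 genes with a polyadenylated form summed to 199 ± 16.3 FPKM in Panc1 knockout and 121 ± 3.63 FPKM in Panc1 wild-type libraries (SD, n = 3 each), a ratio of 1.64. In MiaPaCa2 they summed to 268 ± 66.9 FPKM in knockout and 117 ± 6.84 FPKM in wild-type libraries, a ratio of 2.29. For the other 27 HIST-named members the ratios were smaller, at 1.28 in Panc1 and 1.3 in MiaPaCa2.

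**Figure D1:**
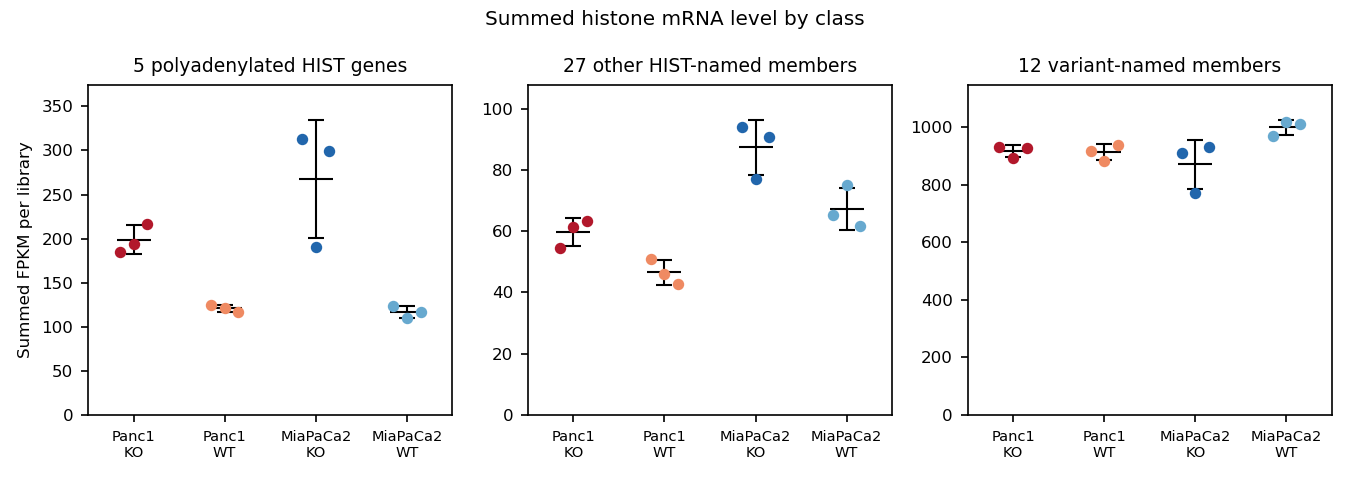
Summed FPKM per library (linear axis from 0) of 5 HIST genes known to make a polyadenylated mRNA, of the 27 other HIST-named members and of the 12 variant-named members, for Panc1 knockout (KO), Panc1 wild-type (WT), MiaPaCa2 KO and MiaPaCa2 WT. Points are libraries and bars the mean ± SD of 3; the polyadenylated sum averaged 199 FPKM in Panc1 KO and 121 FPKM in Panc1 WT, and the lowest MiaPaCa2 KO point in each panel is replicate 2.

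The families differed in the size of the ratio. The H2B sum was 163 ± 11.1 FPKM in Panc1 knockout and 111 ± 4.16 FPKM in Panc1 wild-type libraries (ratio 1.47), and 183 ± 40.6 FPKM in MiaPaCa2 knockout and 87.9 ± 6.73 FPKM in MiaPaCa2 wild-type libraries (ratio 2.09). For H2A the ratios were 1.4 and 1.13, for H3 1.48 and 1.38, and for H4, which is nearly all HIST1H4H, 1.48 and 3.09, in Panc1 and MiaPaCa2 in that order. The H2A sums overlapped in MiaPaCa2, at 47.8 to 59.0 FPKM in knockout and 44.5 to 52.2 FPKM in wild-type libraries. Variants, with H3F3AP4 counted beside H3F3A, summed to 918 ± 20.4 FPKM in Panc1 knockout and 913 ± 27.3 FPKM in Panc1 wild-type libraries (ratio 1.01), which overlapped. In MiaPaCa2 they summed to 872 ± 86.3 FPKM in knockout and 1001 ± 25.4 FPKM in wild-type libraries (ratio 0.871), and every knockout library lay below every wild-type one. FPKM compares libraries on a relative scale, and in bulk RNA fewer cells of a type (cells in S phase, for example) and less RNA per cell cannot be told apart.

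Single genes were tested with limma on log2(FPKM + 1) over 13340 genes with Benjamini-Hochberg adjustment, and calls were made where the adjusted p was below 0.05. The pseudocount of 1 makes differences of genes near 1 FPKM look smaller than they are. Of the 44 members 41 were tested, and HIST2H2BC, HIST1H4E and H1FX-AS1 fell short of the filter, a mean of 1 FPKM across the 6 libraries of either line. In Panc1, 16 of 41 members were higher in knockout (39.0%, against 21.8% of all genes) and 4 were lower (9.8%, against 41.6%). In MiaPaCa2, 14 were higher (34.1%, against 17.8%) and 7 lower (17.1%, against 16.3%), a share close to that of all genes. The HIST-named members were 13 higher and 2 lower of 30 in Panc1, and 14 higher and 1 lower of 30 in MiaPaCa2, with median log2 differences of 0.30 and 0.35, beside medians over all genes of -0.10 and 0.01. The 11 tested variants gave 3 higher and 2 lower in Panc1 and 0 higher and 6 lower in MiaPaCa2, with medians of 0.05 and -0.21. Since the members had to reach 1 FPKM in a group, low members that reached it in some groups had to differ between groups, and 16 HIST-named members reached it in all 4. Of the 26 that averaged 1 FPKM or more across all 12 libraries, 13 were higher and 1 lower in Panc1, and 14 higher and 1 lower in MiaPaCa2. Counted by groups without overlap, 20 members lay higher in Panc1 knockout (against 24.7% of all genes) and 4 lower (against 45.3%), 14 higher (against 23%) and 9 lower (against 20.5%) in MiaPaCa2 knockout, and 8 higher (against 42.8%) and 19 lower (against 42.1%) in wild-type Panc1 beside wild-type MiaPaCa2.

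The scale of the Panc1 libraries bears on these counts. Rescaling each library by its median ratio moved the median of all genes in Panc1 to 0.00, gave 4295 genes higher and 3907 lower in place of 2910 and 5556, and gave 23 members higher in place of 16. HIST-named members were then 17 higher and 2 lower, and variants 6 higher and 2 lower, with H2AFZ, H3F3A and its copy H3F3AP4 added to the higher ones. The HIST-named sum in Panc1 was then 1.7-fold in knockout. Without MiaPaCa2 knockout replicate 2, MiaPaCa2 had 13 higher and 0 lower of 30 HIST-named members and 2 higher and 5 lower of 11 variants. Of all 13340 genes 2283 were then higher and 1956 lower in MiaPaCa2. Reads of near-identical histone genes can be assigned to the wrong copy, and the treatment of reads with several positions is not given, so values of single HIST-named genes are less certain than those of their sums.

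Linker histone HIST1H1C (now H1-2), which binds DNA between nucleosomes, had among the largest increases in both lines. It had 34.1, 37.6 and 44.8 FPKM in Panc1 knockout libraries, against 18.5, 16.4 and 15.2 FPKM in Panc1 wild-type libraries (log2 difference 1.16, SE 0.18, adjusted p = 1.1e-04). In MiaPaCa2 it had 111, 61.1 and 106 FPKM in knockout libraries, against 32.4, 33.1 and 36.6 FPKM in wild-type libraries (log2 difference 1.37, SE 0.18, adjusted p = 1.3e-04). The groups lay apart in both lines, and MiaPaCa2 knockout replicate 2 was well below the other two. HIST1H1C passed a 2-fold change in both lines. Calls at 2-fold were few among all genes: 1.47% higher in Panc1 and 0.382% in MiaPaCa2, where 2 and 4 of 41 members made them.

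Among H2B genes, HIST1H2BK (H2BC12), the most abundant HIST-named gene, had 106, 107 and 121 FPKM in Panc1 knockout libraries, against 71.7, 71.2 and 70.5 FPKM in Panc1 wild-type libraries (log2 difference 0.64, SE 0.14, adjusted p = 0.00186). MiaPaCa2 knockout libraries gave 164, 101 and 159 FPKM, against 70.4, 58.7 and 62.4 FPKM in MiaPaCa2 wild-type libraries (log2 difference 1.11, SE 0.14, adjusted p = 1.2e-04). The wild-type libraries of both lines sat between 58.7 and 71.7 FPKM and all 6 knockout libraries above 100 FPKM. HIST2H2BE (H2BC21), an H2B gene of the chromosome 1 cluster, had 6.12, 6.83 and 6.41 FPKM in Panc1 knockout libraries, against 3.24, 3.04 and 2.96 FPKM in Panc1 wild-type libraries (log2 difference 0.87, SE 0.07, adjusted p = 4.8e-07). In MiaPaCa2 it had 7.69, 7.41 and 8 FPKM in knockout libraries, against 3.37, 3.302 and 2.71 FPKM in wild-type libraries (log2 difference 1.08, SE 0.07, adjusted p = 3.7e-07). Its values varied little between libraries of a group, replicate 2 of MiaPaCa2 knockout included, and its adjusted p was the smallest of the HIST-named members in both lines. HIST1H2BD (H2BC5) had 22.4, 22.6 and 26.2 FPKM in Panc1 knockout libraries, against 17.8, 16.004 and 15.8 FPKM in Panc1 wild-type libraries (log2 difference 0.50, SE 0.11, adjusted p = 0.00203). For MiaPaCa2 the values were 16.2, 12.7 and 13.9 FPKM in knockout libraries, against 10.3, 7.296 and 7.74 FPKM in wild-type libraries (log2 difference 0.70, SE 0.11, adjusted p = 5.5e-04). For this gene too all knockout values lay above the wild-type values of their line.

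Other H2B genes were called in 1 line, and the test of the difference between lines passed for HIST1H2BE and HIST1H2BJ. HIST1H2BE had 3.77, 2.59 and 3.995 FPKM in MiaPaCa2 knockout libraries, against 1.61, 1.55 and 1.27 FPKM in MiaPaCa2 wild-type libraries (log2 difference 0.83, SE 0.14, adjusted p = 7.9e-04). In Panc1 it stayed below 1 FPKM in every library. HIST1H2BJ had 6.39, 2.97 and 5.94 FPKM in MiaPaCa2 knockout libraries, against 1.84, 2.33 and 2.42 FPKM in MiaPaCa2 wild-type libraries (log2 difference 0.89, SE 0.20, adjusted p = 0.00552), and 4.898, 4.04 and 4.94 FPKM in Panc1 knockout and 4.96, 7.17 and 4.66 FPKM in Panc1 wild-type libraries, which overlapped (log2 difference -0.21, SE 0.20, adjusted p = 0.377). The knockout effects of both genes differed between the lines, by -0.91 for HIST1H2BE (adjusted p = 0.00202) and by -1.10 for HIST1H2BJ (adjusted p = 0.00612), Panc1 minus MiaPaCa2. HIST1H2BC passed by little in Panc1 (0.38, adjusted p = 0.0493), with 5.62, 7.46 and 6.07 FPKM in knockout and 5.23, 4.24 and 4.49 FPKM in wild-type libraries, and in MiaPaCa2 its difference was 0.36 (adjusted p = 0.0966), called without MiaPaCa2 knockout replicate 2 (0.54, adjusted p = 0.0124). Its effects in the lines differed by 0.02 (adjusted p = 0.946). Its Panc1 call was lost without Panc1 knockout replicate 2 or 3 or Panc1 wild-type replicate 2 or 3 (0.28 to 0.41, adjusted p = 0.0767 to 0.184), and also without MiaPaCa2 knockout replicate 1 or MiaPaCa2 wild-type replicate 1, which enter the fit through the shared spread (adjusted p = 0.0592 and 0.0576). HIST2H2BA, which current annotation names as a pseudogene (H2BP1), had 3.45, 3.35 and 3.89 FPKM in Panc1 knockout libraries, against 6.44, 4.88 and 3.85 FPKM in Panc1 wild-type libraries (log2 difference -0.39, SE 0.12, adjusted p = 0.0107). These groups overlapped at 1 value, and no MiaPaCa2 library listed the gene. In all, 5 H2B members were higher and 1 lower of 12 in Panc1, and 6 higher and 0 lower in MiaPaCa2, where HIST1H2BF lost its call without knockout replicate 2 (0.31, adjusted p = 0.101). Beside these counts, all genes gave 21.8% higher and 41.6% lower in Panc1 and 17.8% higher and 16.3% lower in MiaPaCa2.

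Of 11 tested H2A members, 4 were higher and 1 lower in Panc1, and 5 higher and 1 lower in MiaPaCa2, where all genes gave 21.8% higher and 41.6% lower in Panc1 and 17.8% higher and 16.3% lower in MiaPaCa2. HIST1H2AC (H2AC6) had 16.7, 20.1 and 18.8 FPKM in Panc1 knockout libraries, against 13.2, 14.4 and 12.7 FPKM in Panc1 wild-type libraries (log2 difference 0.43, SE 0.13, adjusted p = 0.0117). The MiaPaCa2 values were 13.9, 8.52 and 12.7 FPKM in knockout libraries, against 7.29, 7.59 and 6.88 FPKM in wild-type libraries (log2 difference 0.60, SE 0.13, adjusted p = 0.00415). The groups lay apart in both lines, with MiaPaCa2 knockout replicate 2 just above the wild-type libraries. HIST1H2AE had 2.35, 2.48 and 3.21 FPKM in Panc1 knockout libraries, against 1.06, 1.57 and 1.07 FPKM in Panc1 wild-type libraries (log2 difference 0.72, SE 0.16, adjusted p = 0.00206), and 2.98, 2.21 and 4.36 FPKM in MiaPaCa2 knockout libraries, against 2.21, 1.57 and 1.93 FPKM in MiaPaCa2 wild-type libraries (log2 difference 0.50, SE 0.16, adjusted p = 0.0323). HIST1H2AI had 1.46, 1.71 and 2.09 FPKM in Panc1 knockout libraries, against 0.731, 0.855 and 0.987 FPKM in Panc1 wild-type libraries (log2 difference 0.56, SE 0.15, adjusted p = 0.00515), and 1.68, 1.27 and 2.74 FPKM in MiaPaCa2 knockout libraries, against 0.748, 0.896 and 0.62 FPKM in MiaPaCa2 wild-type libraries (log2 difference 0.70, SE 0.15, adjusted p = 0.00352). Both of these low genes were called in both lines. HIST1H2AI reached 1 FPKM, the level that makes a gene a member, in the 2 knockout groups alone, so that its higher knockout level is in part what chose it. The MiaPaCa2 values of HIST1H2AE touched, with knockout replicate 2 just under wild-type replicate 1. The MiaPaCa2 call of HIST1H2AE was lost without knockout replicate 1 or 3 or wild-type replicate 2 or 3 (0.31 to 0.52, adjusted p = 0.0629 to 0.118).

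HIST2H2AC fell in MiaPaCa2 and HIST1H2AK in Panc1, and no H2A gene of the clusters was called in opposite directions in the lines. HIST2H2AC, an H2A gene of the chromosome 1 cluster, had 3.79, 2.095 and 3.198 FPKM in MiaPaCa2 knockout libraries, against 5.84, 5.02 and 4.67 FPKM in MiaPaCa2 wild-type libraries (log2 difference -0.64, SE 0.18, adjusted p = 0.0167). It was below 1 FPKM in every Panc1 library, and the MiaPaCa2 call was lost without knockout replicate 2 (-0.46, adjusted p = 0.0645) or wild-type replicate 1 (-0.56, adjusted p = 0.057). HIST1H2AK had 0.674, 0.513 and 0.4 FPKM in Panc1 knockout libraries, against 0.946, 0.893 and 1.07 FPKM in Panc1 wild-type libraries (log2 difference -0.37, SE 0.11, adjusted p = 0.0109). In MiaPaCa2 its values were 1.58, 1.11 and 1.398 FPKM in knockout and 0.894, 1.39 and 0.777 FPKM in wild-type libraries and overlapped, and the knockout effects differed by -0.60 (adjusted p = 0.00573). HIST3H2A, from a small group of genes elsewhere on chromosome 1, had 3.23, 4.62 and 5.204 FPKM in Panc1 knockout libraries, against 4.05, 2.13 and 2 FPKM in Panc1 wild-type libraries (log2 difference 0.54, SE 0.17, adjusted p = 0.0158). These overlapped, because wild-type replicate 1 lay above knockout replicate 1, and the call was lost without knockout replicate 2 or 3 or wild-type replicate 2 or 3 (0.41 to 0.50, adjusted p = 0.0529 to 0.0744). In MiaPaCa2, where it was several times more abundant, it had 18.2, 17.4 and 16.6 FPKM in knockout and 20.4, 20.2 and 18.7 FPKM in wild-type libraries (log2 difference -0.17, SE 0.17, adjusted p = 0.493). HIST1H2AJ, which reached 1 FPKM in MiaPaCa2 alone, had 1.82, 1.57 and 1.16 FPKM in MiaPaCa2 knockout libraries and 2.25, 2 and 2.02 FPKM in MiaPaCa2 wild-type libraries (log2 difference -0.30, SE 0.12, adjusted p = 0.0599), and its effects differed between the lines by 0.46 (adjusted p = 0.0284). That difference was not called without MiaPaCa2 knockout replicate 3, MiaPaCa2 wild-type replicate 1, Panc1 knockout replicate 2 or Panc1 wild-type replicate 1 (0.35 to 0.43, adjusted p = 0.0604 to 0.0675).

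H3 and H4 genes were few and low. HIST1H3H had 5.11, 4.53 and 6.74 FPKM in Panc1 knockout libraries, against 3.297, 2.75 and 2.24 FPKM in Panc1 wild-type libraries (log2 difference 0.77, SE 0.14, adjusted p = 4.2e-04), and 4.18, 4.801 and 5.59 FPKM in MiaPaCa2 knockout and 3.73, 4.796 and 3.61 FPKM in MiaPaCa2 wild-type libraries, which overlapped (log2 difference 0.22, SE 0.14, adjusted p = 0.268). HIST1H3D showed the other pattern, with 5.89, 3.27 and 5.06 FPKM in MiaPaCa2 knockout libraries, against 1.86, 2.99 and 1.98 FPKM in MiaPaCa2 wild-type libraries (log2 difference 0.80, SE 0.16, adjusted p = 0.00256), and a Panc1 difference of 0.27 (adjusted p = 0.161). The difference between the effects was not called for HIST1H3D (-0.53, adjusted p = 0.0654) and was called for HIST1H3H (0.56, adjusted p = 0.0305), but the HIST1H3H call was lost without Panc1 knockout replicate 3, Panc1 wild-type replicate 2 or 3, MiaPaCa2 knockout replicate 1 or MiaPaCa2 wild-type replicate 2 (0.42 to 0.56, adjusted p = 0.0525 to 0.0774). HIST1H3B had 1.42, 1.696 and 1.95 FPKM in Panc1 knockout libraries, against 0.85, 0.711 and 0.901 FPKM in Panc1 wild-type libraries (log2 difference 0.56, SE 0.15, adjusted p = 0.00528). Its MiaPaCa2 values overlapped (1.16, 1.05 and 0.943 FPKM in knockout and 0.953, 2.32 and 1.41 FPKM in wild-type libraries), and the effects differed by 0.85 (adjusted p = 0.00431). Of the 5 H3 members 2 were called higher in Panc1 and 1 in MiaPaCa2, and none was called lower; of all genes 21.8% were higher in Panc1 and 17.8% in MiaPaCa2.

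HIST1H4H (H4C8) made the largest change of all members in MiaPaCa2. It had 9.39, 8.101 and 9.498 FPKM in MiaPaCa2 knockout libraries, against 2.501, 2.44 and 2.01 FPKM in MiaPaCa2 wild-type libraries (log2 difference 1.59, SE 0.17, adjusted p = 2.2e-05), so that even knockout replicate 2 stood above 3 times the highest wild-type value. In Panc1 it had 4.001, 3.796 and 4.85 FPKM in knockout libraries, against 3.52, 1.65 and 3.33 FPKM in wild-type libraries (log2 difference 0.48, SE 0.17, adjusted p = 0.0231), and wild-type replicate 2 was far below the rest. The effects differed by -1.11 between the lines (adjusted p = 0.00157), and the Panc1 call was lost without wild-type replicate 2 (0.23, adjusted p = 0.0699) or knockout replicate 3 (0.39, adjusted p = 0.0911). HIST1H4E, the other H4 member, averaged 1.02 ± 0.365 FPKM in MiaPaCa2 knockout and 0.929 ± 0.5598 FPKM in MiaPaCa2 wild-type libraries and was not tested.

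**Figure D2:**
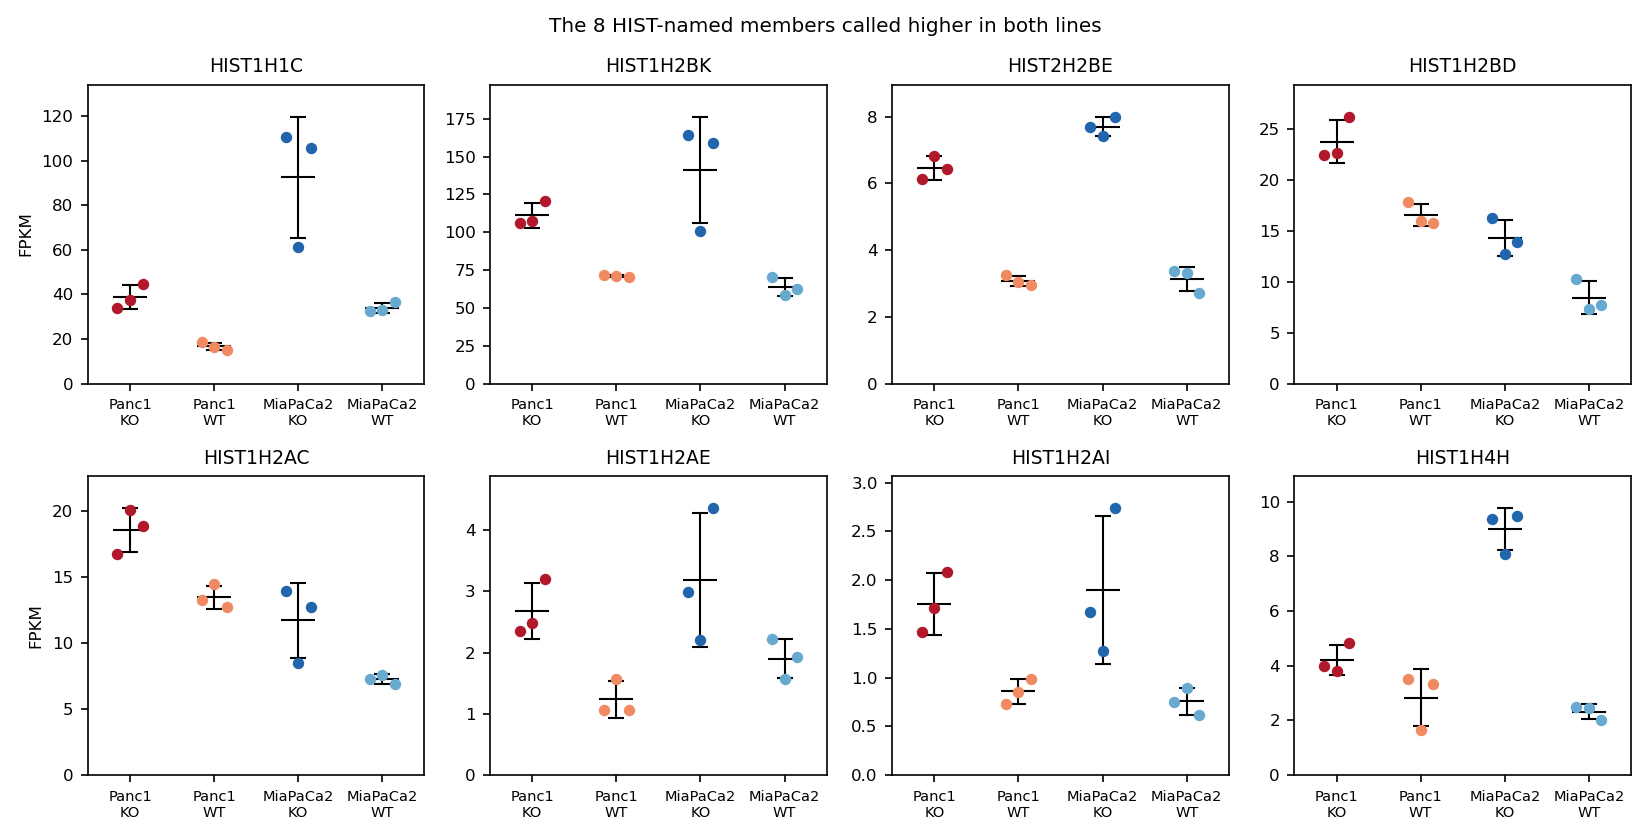
FPKM per library (linear axes from 0, a scale for each panel) of the 8 HIST-named members called higher in knockout in both lines, for Panc1 KO, Panc1 WT, MiaPaCa2 KO and MiaPaCa2 WT. Points are libraries and bars the mean ± SD of 3; HIST2H2BE averaged 6.45 FPKM in Panc1 KO and 3.08 FPKM in Panc1 WT with little spread, while MiaPaCa2 KO values of HIST1H1C and HIST1H2BK spread widely.

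Of the linker variants, H1FX changed in opposite directions in the lines and H1F0 fell in MiaPaCa2. H1FX (H1-10), a replication-independent linker histone, had 104, 113 and 115 FPKM in Panc1 knockout libraries, against 77.8, 76.5 and 85.3 FPKM in Panc1 wild-type libraries (log2 difference 0.46, SE 0.06, adjusted p = 4.5e-05). In MiaPaCa2 it had 72.2, 68.4 and 80.4 FPKM in knockout libraries, against 91.03, 98.6 and 94.05 FPKM in wild-type libraries (log2 difference -0.36, SE 0.06, adjusted p = 0.00111), and the effects differed by 0.82 (adjusted p = 1.3e-05). Knockout values thus lay above the wild-type range in Panc1 and below it in MiaPaCa2. H1FX-AS1, an antisense RNA that overlaps H1FX on the other strand, had group means of 0.746 to 1.03 FPKM and was not tested, and since use of strand is not stated, reads of this pair cannot be told apart. H1F0, the linker variant known from resting and differentiated cells, had 37.95, 37.6 and 38.7 FPKM in MiaPaCa2 knockout libraries, against 48.7, 53.5 and 55.2 FPKM in MiaPaCa2 wild-type libraries (log2 difference -0.45, SE 0.06, adjusted p = 1.3e-04). In Panc1 it had 57.9, 52.6 and 48.9 FPKM in knockout libraries and 58.5, 57.9 and 59.02 FPKM in wild-type libraries, where knockout replicate 1 nearly touched wild-type replicate 2 (log2 difference -0.14, SE 0.06, adjusted p = 0.0548). It was called lower there without Panc1 knockout replicate 1 (-0.20, adjusted p = 0.00689) or MiaPaCa2 wild-type replicate 1 (-0.14, adjusted p = 0.0365).

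H2AFY2 (MACROH2A2), which codes for a macroH2A protein with a large extra domain and is known for silent chromatin, made the largest change of all members. It had 3.63, 3.91 and 3.58 FPKM in Panc1 knockout libraries, against 0.151, 0.043 and 0.109 FPKM in Panc1 wild-type libraries (log2 difference 2.10, SE 0.14, adjusted p = 9.4e-08). Its MiaPaCa2 levels were 2.56, 1.25 and 2.45 FPKM in knockout libraries, against 3.99, 4.51 and 4.16 FPKM in wild-type libraries (log2 difference -0.79, SE 0.14, adjusted p = 9.1e-04). The gene was thus near 0 in wild-type Panc1 alone. Its knockout level lay above wild type in Panc1 and below it in MiaPaCa2, with a difference between effects of 2.88 (adjusted p = 2.5e-07). Its relative H2AFY (MACROH2A1) had 48.4, 48.5 and 48.7 FPKM in Panc1 knockout libraries, against 66.1, 63.4 and 65.9 FPKM in Panc1 wild-type libraries (log2 difference -0.42, SE 0.05, adjusted p = 9.9e-06), and 77.4, 68.4 and 76.96 FPKM in MiaPaCa2 knockout and 72.1, 68.2 and 71.6 FPKM in MiaPaCa2 wild-type libraries, which overlapped (log2 difference 0.07, SE 0.05, adjusted p = 0.298). The macroH2A genes therefore changed in opposite directions in Panc1. Without MiaPaCa2 knockout replicate 2 H2AFY was called higher there (0.13, adjusted p = 0.0213). Other tested genes of chromosome 5, where H2AFY lies, had a median log2 difference of -0.28 in Panc1.

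H2AFJ, a mammalian H2A variant that differs from the canonical form near its end, had 13.7, 13.5 and 14.2 FPKM in Panc1 knockout libraries, against 10.3, 9.2 and 9.48 FPKM in Panc1 wild-type libraries (log2 difference 0.48, SE 0.05, adjusted p = 3.7e-06). Levels in MiaPaCa2 were 21.2, 20.1 and 20.8 FPKM in knockout libraries, against 27.8, 29.2 and 29.7 FPKM in wild-type libraries (log2 difference -0.46, SE 0.05, adjusted p = 2.4e-05). All 4 groups lay apart from each other, and the effects differed by 0.94 (adjusted p = 5.0e-07). H2AFV (H2AZ2), an H2A.Z gene whose protein sits at active promoters, had 43.8, 42.6 and 44.4 FPKM in Panc1 knockout libraries, against 62.6, 60.1 and 66.2 FPKM in Panc1 wild-type libraries (log2 difference -0.52, SE 0.05, adjusted p = 3.3e-06), and 63.7, 56.8 and 63.5 FPKM in MiaPaCa2 knockout and 67.6, 65.5 and 70.3 FPKM in MiaPaCa2 wild-type libraries (log2 difference -0.14, SE 0.05, adjusted p = 0.0492). It was the one member called lower in both lines (2.4% of those tested, against 6.34% of all genes), but the MiaPaCa2 call lay at the threshold and was lost without knockout replicate 2 (-0.09, adjusted p = 0.161), without any of the 3 wild-type libraries (-0.17 to -0.12, adjusted p = 0.0563 to 0.169) and without any of 5 Panc1 libraries (adjusted p = 0.0505 to 0.0665). Other tested genes of chromosome 7, where H2AFV lies, had a median of -0.34 in Panc1, with 399 of 601 called lower. H2AFZ, the other H2A.Z gene and the highest member by FPKM, had 216, 209 and 209.9 FPKM in Panc1 knockout and 210.03, 199 and 202 FPKM in Panc1 wild-type libraries (log2 difference 0.05, SE 0.06, adjusted p = 0.453), and 191, 162 and 197 FPKM in MiaPaCa2 knockout and 179.95, 177 and 177 FPKM in MiaPaCa2 wild-type libraries (log2 difference 0.04, SE 0.06, adjusted p = 0.659). It was not called in either line, and without MiaPaCa2 knockout replicate 2 it was called higher in MiaPaCa2 (0.13, adjusted p = 0.0173).

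H2AFX, whose protein is phosphorylated around DNA breaks, had 147, 116 and 158 FPKM in MiaPaCa2 knockout libraries, against 178, 215 and 199 FPKM in MiaPaCa2 wild-type libraries (log2 difference -0.50, SE 0.11, adjusted p = 0.00489). In Panc1 it had 135, 138 and 159 FPKM in knockout and 151, 139.6 and 169 FPKM in wild-type libraries, which overlapped (log2 difference -0.09, SE 0.11, adjusted p = 0.508). The effects differed by 0.41 (adjusted p = 0.0427), a call lost when any of 7 libraries was left out, MiaPaCa2 knockout replicate 2 among them (0.28, adjusted p = 0.084). It is the variant that carries the stem-loop shown above, and its MiaPaCa2 change ran against that of most called HIST-named members. H3F3A and H3F3B, which code for the replication-independent H3 variant, were called in neither line with all libraries. H3F3A had 98.2, 84.5 and 87.7 FPKM in Panc1 knockout and 84.2, 83.1 and 83.7 FPKM in Panc1 wild-type libraries (log2 difference 0.10, SE 0.06, adjusted p = 0.177), and 82.5, 69.99 and 80.1 FPKM in MiaPaCa2 knockout and 85.2, 83.4 and 80.9 FPKM in MiaPaCa2 wild-type libraries (log2 difference -0.10, SE 0.06, adjusted p = 0.242). H3F3B had 111, 103 and 106 FPKM in Panc1 knockout and 110.4, 109 and 111 FPKM in Panc1 wild-type libraries (log2 difference -0.05, SE 0.08, adjusted p = 0.64), and 129, 100.01 and 131 FPKM in MiaPaCa2 knockout and 129.6, 138 and 146 FPKM in MiaPaCa2 wild-type libraries (log2 difference -0.21, SE 0.08, adjusted p = 0.0757), and it was called lower without MiaPaCa2 knockout replicate 1 (-0.26, adjusted p = 0.0488) or 3 (-0.28, adjusted p = 0.0283). The processed pseudogene H3F3AP4 followed H3F3A at 1.0188 to 1.0192 times its FPKM in every library, so it holds the same reads and adds no evidence.

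**Figure D3:**
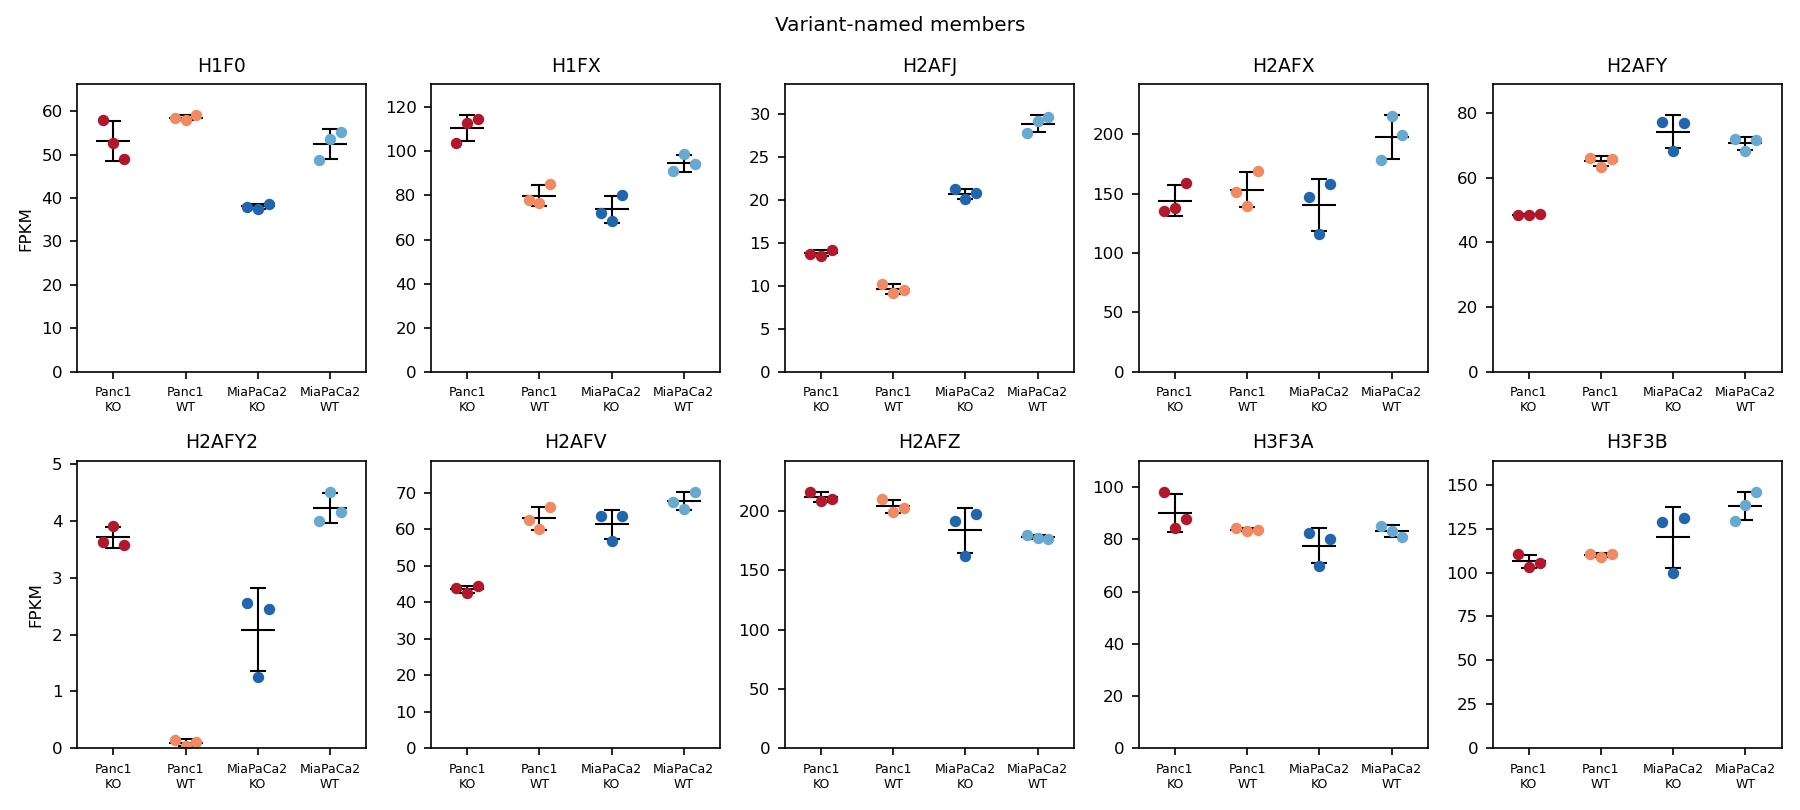
FPKM per library (linear axes from 0, a scale for each panel) of variant-named members in Panc1 KO, Panc1 WT, MiaPaCa2 KO and MiaPaCa2 WT. Points are libraries and bars the mean ± SD of 3; H2AFY2 averaged 3.71 FPKM in Panc1 KO and 0.101 FPKM in Panc1 WT, but 2.09 FPKM in MiaPaCa2 KO and 4.22 FPKM in MiaPaCa2 WT.

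Set side by side, 8 of 30 tested HIST-named members were called higher in both lines, and 3 of 11 tested variants were called in opposite directions. The 8 members called higher in both lines (19.5% of those tested, against 5.0% of all genes) were all HIST-named: HIST1H1C, HIST1H2AC, HIST1H2AE, HIST1H2AI, HIST1H2BD, HIST1H2BK, HIST2H2BE and HIST1H4H. One of the 8, HIST1H2AI, is a member only through its knockout groups, and the other 7 reached 1 FPKM in all 4 groups. All 5 genes of the polyadenylated list were among them, with median log2 differences of 0.64 in Panc1 and 1.08 in MiaPaCa2 (4 of the 5 in MiaPaCa2 when that line was fitted alone, where HIST1H2AC had an adjusted p of 0.051). The other HIST-named members gave 8 higher and 2 lower of 25 in Panc1 and 9 higher and 1 lower in MiaPaCa2. All genes gave 21.8% higher and 41.6% lower in Panc1 and 17.8% higher and 16.3% lower in MiaPaCa2. The 3 members higher in Panc1 and lower in MiaPaCa2 (7.3%, against 4.07%) were the variants H1FX, H2AFJ and H2AFY2, and no member went the other way (against 6.04%). The test of the difference called 10 members with a higher effect in Panc1 (24.4%, against 20% of all genes) and 7 with a lower one (17.1%, against 37.4%), 17 in all (against 57.4%). Of the HIST-named members 5 were called each way, and of the variants 5 were higher and 2 lower. Without MiaPaCa2 knockout replicate 2 the effects of HIST1H1C (-0.48, adjusted p = 0.0116), HIST1H2BK (-0.69, adjusted p = 1.1e-04), HIST1H2AC (-0.36, adjusted p = 0.0116) and HIST1H3D (-0.73, adjusted p = 0.00467) were also called lower in Panc1. Across the 41 tested members the log2 differences of the lines correlated at r = 0.109, beside 0.061 across all genes.

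**Figure D4:**
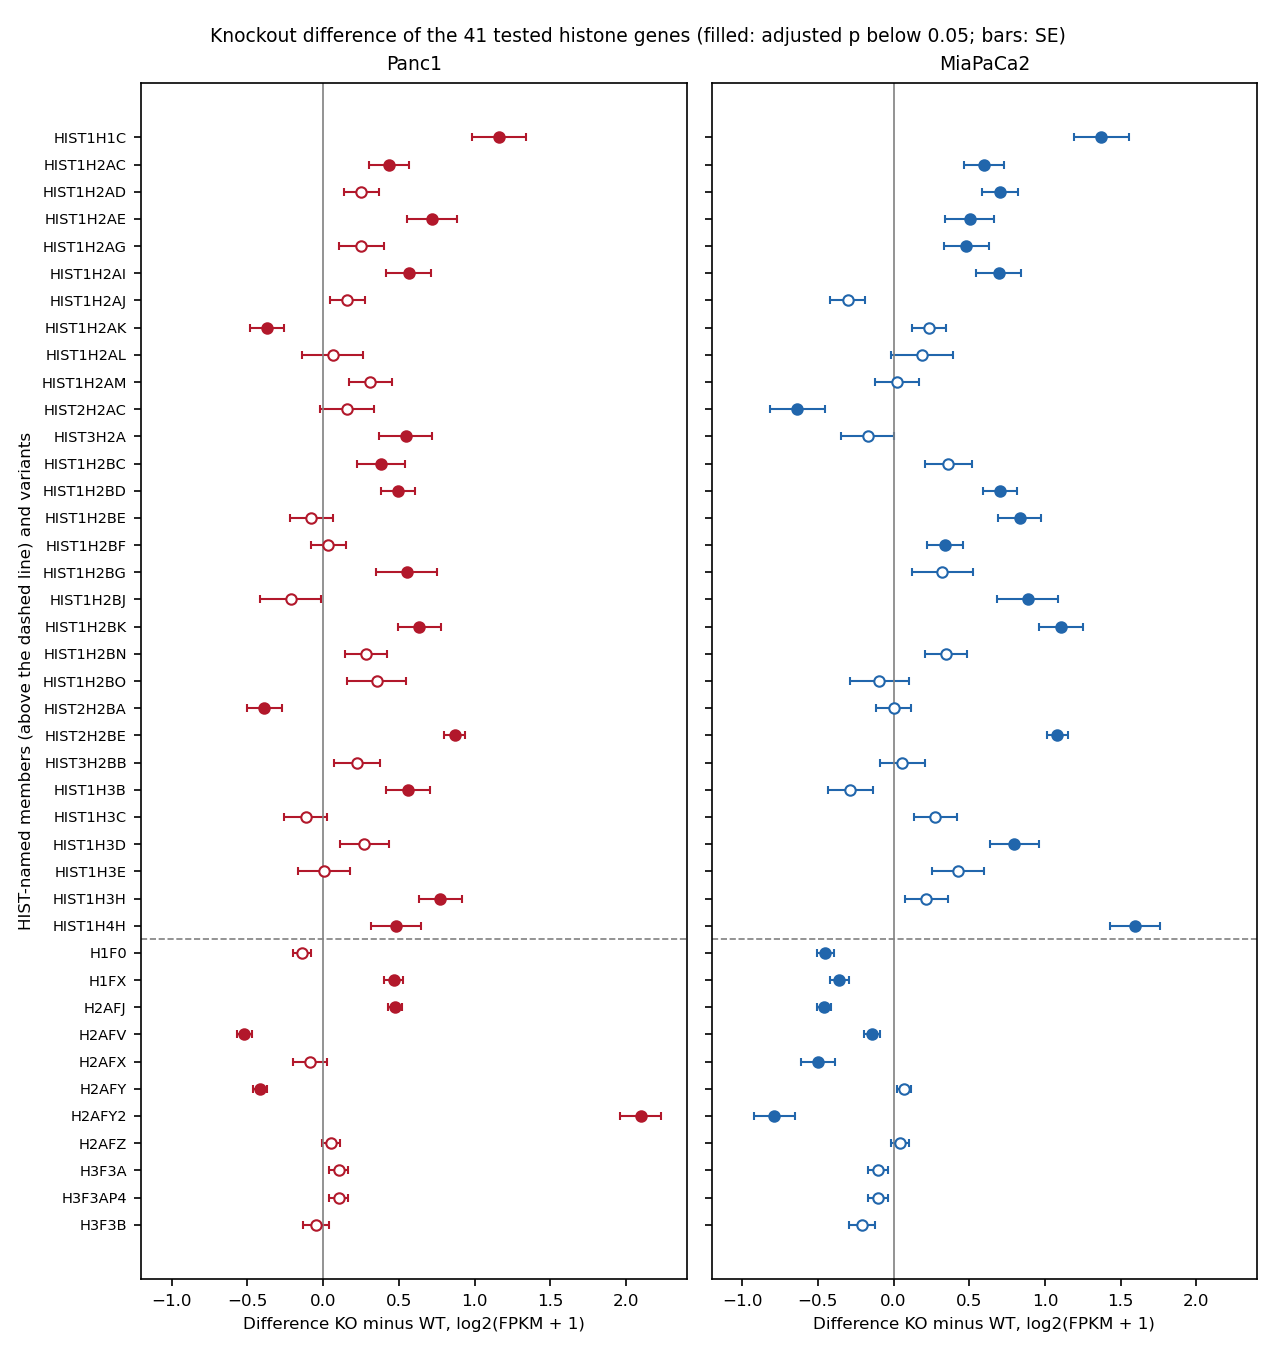
Log2 difference of log2(FPKM + 1), knockout minus wild-type, of the 41 tested members, on the x axis, in Panc1 (left) and MiaPaCa2 (right). Each row is a member, with HIST-named members above the dashed line and variants below it. Bars are the SE, and filled points have an adjusted p below 0.05. H2AFY2 lies at 2.10 in Panc1 and -0.79 in MiaPaCa2, and HIST1H4H at 0.48 and 1.59.

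The wild-type lines differed in 28 of 41 tested members, beside 82.7% of all genes. Against wild-type MiaPaCa2, 8 of 41 members were higher in wild-type Panc1 (19.5%, against 41.8% of all genes) and 20 were lower (48.8%, against 40.9%). At 2-fold, 2 were higher (HIST1H2BJ and HIST2H2BA, 4.9%, against 14.7%) and 5 lower (HIST1H2AJ, HIST2H2AC, HIST3H2A, H2AFJ and H2AFY2, 12.2%, against 10.2%). HIST3H2A averaged 2.73 ± 1.15 FPKM in wild-type Panc1 and 19.8 ± 0.947 FPKM in wild-type MiaPaCa2 (log2 difference -2.52, SE 0.17, adjusted p = 1.8e-08). HIST2H2AC averaged 0.383 ± 0.264 and 5.18 ± 0.599 FPKM in the same order (log2 difference -2.17, SE 0.18, adjusted p = 1.1e-07), and H2AFJ 9.65 ± 0.558 and 28.9 ± 0.988 FPKM (log2 difference -1.49, SE 0.05, adjusted p = 7.6e-12). All these groups lay apart. HIST3H2BB, an H2B gene beside HIST3H2A, averaged 0.065 ± 0.056 FPKM in wild-type Panc1 and 1.08 ± 0.408 FPKM in wild-type MiaPaCa2 (log2 difference -0.95, SE 0.15, adjusted p = 6.2e-05). HIST1H2AL (-0.77) and HIST1H2AM (-0.72) were also lower in wild-type Panc1 and were called in neither knockout comparison. Higher in wild-type Panc1 were the H2B gene HIST1H2BD (log2 difference 0.91, adjusted p = 6.5e-06), the H2A gene HIST1H2AC (0.81, adjusted p = 7.7e-05) and HIST1H2BC (0.70, adjusted p = 0.00111). HIST1H1C was lower there (-0.98, adjusted p = 2.1e-04), whereas HIST1H2BK and HIST2H2BE were not called (0.16 and -0.01). Of the abundant variants, H3F3B (-0.32), H2AFX (-0.36) and H1FX (-0.24) were lower in wild-type Panc1 and H2AFZ (0.20) and H1F0 (0.16) higher. These calls use the same wild-type libraries as the knockout comparisons.

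Position along the genome was looked at for the HIST1 cluster on chromosome 6, where 24 members have a position between bases 26031817 and 27861669 (GRCh37). On chromosome 6, 11 of 25 tested HIST-named members were higher and 1 lower in Panc1 (median 0.31), and 13 higher and 0 lower in MiaPaCa2 (median 0.42), where 21.8% and 17.8% of all genes were higher in Panc1 and MiaPaCa2. The 14 tested genes of other kinds within the cluster gave 7 higher and 1 lower in Panc1 (against 21.8% higher of all genes; median 0.18) and 4 higher and 0 lower in MiaPaCa2 (against 17.8% higher; median 0.14). They include butyrophilin genes, which code for immune receptors, and HMGN4, a nucleosome-binding protein: BTN2A2 rose in both lines (0.40 in Panc1 and 0.53 in MiaPaCa2), while its relative BTN2A1 fell in Panc1 (-0.20) and rose in MiaPaCa2 (0.36). The 594 tested genes of chromosome 6 outside the histone symbols, with the 14 of the cluster counted among them, had medians of 0.00 and 0.03. DNA copy number was not measured, and its part in these differences was not tested. Of 5 tested HIST-named members on chromosome 1, 2 were higher and 1 lower in Panc1 and 1 higher and 1 lower in MiaPaCa2. All genes gave 21.8% higher and 41.6% lower in Panc1 and 17.8% higher and 16.3% lower in MiaPaCa2.

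**Figure D5:**
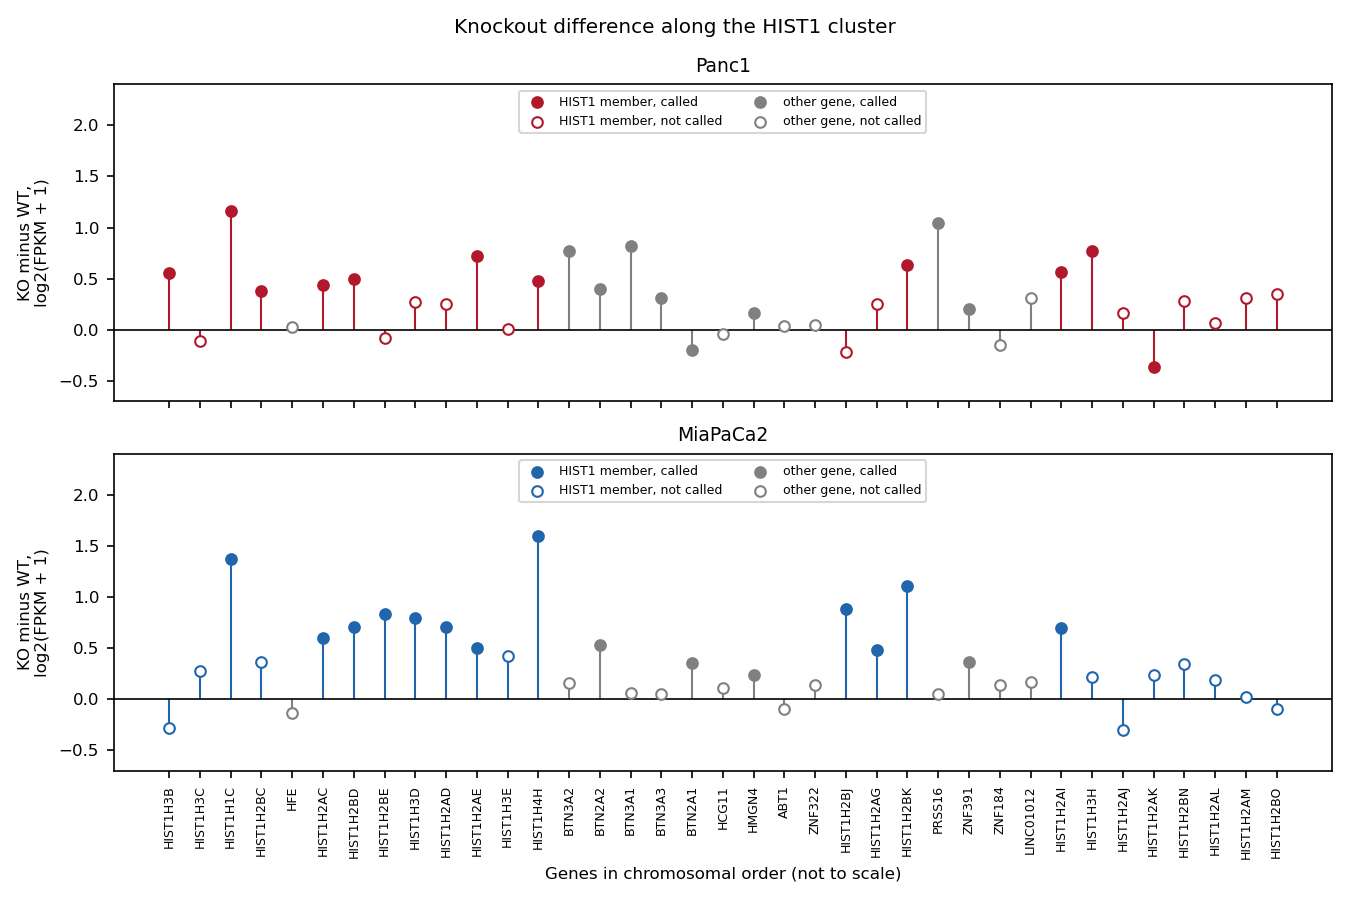
Log2 difference of log2(FPKM + 1), knockout minus wild-type, in Panc1 (upper) and MiaPaCa2 (lower), of tested genes of the HIST1 cluster in chromosomal order, not to scale. Coloured points are HIST1 members, grey points other genes, and filled points passed the test; HIST1H4H stands at 1.59 in MiaPaCa2 and at 0.48 in Panc1.

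Neighbours that share an upstream region did not always move alike. In 6 pairs of H2A and H2B members the start sites lie 170 to 248 bases apart and point away from each other. In MiaPaCa2, HIST2H2BE rose (1.08) while HIST2H2AC, 236 bases away, fell (-0.64). HIST1H2BJ and HIST1H2AG were both called higher in MiaPaCa2 (0.89 and 0.48) and neither in Panc1 (-0.21 and 0.25). The HIST1H2AG call was lost without MiaPaCa2 knockout replicate 2 (0.48, adjusted p = 0.0523) or 3 (0.44, adjusted p = 0.0682) and without MiaPaCa2 wild-type replicate 1 (0.48, adjusted p = 0.0569) or 3 (0.30, adjusted p = 0.105). HIST1H2BC and HIST1H2AC were both called higher in Panc1 (0.38 and 0.43). In the pair of HIST1H2AK and HIST1H2BN, HIST1H2AK fell in Panc1 (-0.37) and HIST1H2BN was at 0.28 (adjusted p = 0.093). Members with an annotated transcript end at least 100 bases past the stem-loop numbered 11, of which 7 were higher in Panc1 and 6 in MiaPaCa2 and none lower. Of 15 tested members without one, 5 were higher and 1 lower in Panc1 and 7 higher and 1 lower in MiaPaCa2. With the octamer upstream, 6 of 17 were higher and 0 lower in Panc1 and 10 higher and 1 lower in MiaPaCa2. Without the octamer, 7 of 12 were higher and 1 lower in Panc1 and 4 higher and 0 lower in MiaPaCa2. Beside the counts by transcript end and octamer, all genes gave 21.8% higher and 41.6% lower in Panc1. In MiaPaCa2 all genes gave 17.8% higher and 16.3% lower.

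Genes for making and handling histone mRNA were called lower more often than higher. Of 18 tested genes for histone mRNA transcription, processing and decay, 1 was higher and 14 lower in Panc1 (median -0.28) and 2 higher and 7 lower in MiaPaCa2 (median -0.16), with 9 not called there. For comparison, all genes gave 21.8% higher and 41.6% lower in Panc1 and 17.8% higher and 16.3% lower in MiaPaCa2, with medians of -0.10 and 0.01. NPAT, the coactivator of the clustered histone genes, averaged 2.71 ± 0.248 FPKM in Panc1 knockout and 4.19 ± 0.368 FPKM in Panc1 wild-type libraries (log2 difference -0.48, SE 0.10, adjusted p = 0.001), and 4.88 ± 0.715 FPKM in MiaPaCa2 knockout and 5.61 ± 0.642 FPKM in MiaPaCa2 wild-type libraries (log2 difference -0.17, SE 0.10, adjusted p = 0.209). SLBP, which binds the stem-loop, averaged 27.7 ± 1.87 FPKM in Panc1 knockout and 35.6 ± 0.558 FPKM in Panc1 wild-type libraries (log2 difference -0.35, SE 0.06, adjusted p = 2.6e-04), and 36.3 ± 2.82 FPKM in MiaPaCa2 knockout and 40.05 ± 1.64 FPKM in MiaPaCa2 wild-type libraries (log2 difference -0.14, SE 0.06, adjusted p = 0.0942). Both fell in Panc1 and were not called in MiaPaCa2. Cyclin E, which with CDK2 activates NPAT, fell in Panc1 by CCNE2 (-0.92) and CCNE1 (-0.55), as did CASP8AP2 (-0.54) and the cleavage factor gene CSTF2 (-0.49). In MiaPaCa2 CPSF3, the endonuclease that cuts histone pre-mRNA, fell (-0.52) with CPSF2 (-0.39), and HINFP, an activator of H4 genes, rose (0.41). After median-ratio rescaling the Panc1 list held 1 higher and 9 lower (beside 3907 of 13340 genes lower). After the correction for GC content and length it held 2 higher and 8 lower (beside 4089 of 13340 genes lower). With that correction NPAT and CASP8AP2 were no longer called.

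Chaperones, which carry histones to DNA, gave 0 higher and 12 lower of 22 in Panc1 (54.5% lower, against 41.6% of all genes) and 1 higher and 8 lower in MiaPaCa2 (36.4% lower, against 16.3%). After median-ratio rescaling 4 were higher and 8 lower in Panc1, beside 3907 of 13340 genes lower. When MiaPaCa2 was fitted alone 4 were lower there, beside 1578 of 13340 genes. The largest falls in Panc1 were ATRX, which helps to load H3 variants at repeats (-0.88, adjusted p = 0.00206), ANP32E, which removes H2A.Z (-0.76, adjusted p = 1.1e-05), TONSL (-0.68, adjusted p = 2.2e-06) and HJURP, the loader of the centromeric H3 variant (-0.62, adjusted p = 3.6e-07). TONSL (-0.43, adjusted p = 3.3e-04), ASF1B (-0.35, adjusted p = 0.0039), ANP32E (-0.26, adjusted p = 0.0344) and NASP (-0.22, adjusted p = 0.0198) fell in MiaPaCa2. CENPA, that centromeric variant, averaged 15.4 ± 1.44 FPKM in Panc1 knockout and 20.6 ± 0.576 FPKM in Panc1 wild-type libraries (log2 difference -0.40, SE 0.07, adjusted p = 2.9e-04), and 16.9 ± 1.33 FPKM in MiaPaCa2 knockout and 23.9 ± 1.22 FPKM in MiaPaCa2 wild-type libraries (log2 difference -0.48, SE 0.07, adjusted p = 2.9e-04). CENPA fell in both lines. Of 20 S phase genes, 1 was higher and 14 lower in Panc1 (70.0% lower, against 41.6% of all genes), with a median of -0.40. In MiaPaCa2 0 were higher and 14 lower (70.0% lower, against 16.3% of all genes), with a median of -0.28. When MiaPaCa2 was fitted alone 5 S phase genes were lower, beside 1578 of 13340 genes. RRM2, which makes DNA precursors, averaged 41.2 ± 1.26 FPKM in Panc1 knockout and 91.4 ± 1.81 FPKM in Panc1 wild-type libraries (log2 difference -1.13, SE 0.10, adjusted p = 1.4e-06), and 64.6 ± 11.8 FPKM in MiaPaCa2 knockout and 124 ± 8.05 FPKM in MiaPaCa2 wild-type libraries (log2 difference -0.94, SE 0.10, adjusted p = 3.0e-05). MCM4 (-0.74), POLA1 (-0.69) and FEN1 (-0.63) fell with it in Panc1, and CDT1 (-0.50), MCM6 (-0.43) and MCM5 (-0.41) in MiaPaCa2. These lower S phase levels stood beside higher HIST-named levels in the same libraries, and their part in the histone results was not tested.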

How the data were processed

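The deposited values are FPKM for each gene symbol, 1 file for each library. According to the labels' protocols, ISOGEN II was used to extract total RNA, and a BGISEQ-500 sequenced it. Adaptors were trimmed, poor or simple reads were dropped, the rest were mapped to hg19 by TopHat2 2.0.14, and STAR 2.5.2a gave the FPKM, per the series text and per the submitters' processing notes. Library preparation, strand, read number and the handling of reads with several positions are not given in these sources. Without counts no counting interval can be given.

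A symbol missing from a library was taken as 0. The fit was limma 3.58.1 (R 4.3.3) on log2(FPKM + 1) with 4 group means over 12 libraries (8 residual degrees of freedom) and a mean-variance trend. Tests were two-sided, with Benjamini-Hochberg adjustment over 13340 genes, and the code was tested on simulated data first. Comparisons were knockout with wild-type within Panc1 and within MiaPaCa2, the difference of these effects, and Panc1 with MiaPaCa2 in wild-type cells. Sums over members and counts over lists have no test. Tables and figures were made with Python 3.11.15, pandas 2.3.3, numpy 2.4.6 and matplotlib 3.10.9. Positions, stem-loops and gene types came from GENCODE release 44 mapped to GRCh37, where 41 members have one (HIST1H2BF, HIST1H2BG and HIST2H2BA do not).

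The members and lists were chosen with earlier results of these data known. Genes named are all variants, the HIST-named members with the largest called changes without overlap in each comparison (up to 8 each way), the 6 largest called differences between lines, the 2 highest of each family, the polyadenylated list, the members beside the threshold and, of other lists, up to 4 of the largest called changes in each line plus SLBP, NPAT, CENPA and ASAP2. Genes named beside these, such as HIST1H2AG, HIST1H2BN and BTN2A2, were chosen after their values were seen. Same-numbered libraries did not deviate together, so replicate numbers were not used as pairs. Alternatives were another pseudocount, filter or scaling, a correction for GC content and length by loess (added after the data were seen), limma without its trend, each line alone, the replicate block and each library left out.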

Additional observations from a re-analysis of the deposited data

Results flagged for a closer look

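The knockout effect differed between the lines, by the test of the difference itself, for 16 named members and for ASAP2 and SLBP. Such calls were common: the test called 7661 of all 13340 genes, beside 17 of 41 tested members. Members were thus called less often than genes at large. Each value here is the log2 difference in Panc1 minus that in MiaPaCa2. H2AFY2 stood farthest apart at 2.88, because its level was higher in Panc1 knockout and lower in MiaPaCa2 knockout than in wild-type cells. H2AFJ (0.94) and H1FX (0.82) shared that pattern. Effects higher in Panc1 were also found for HIST1H3B (0.85), HIST2H2AC (0.79), HIST3H2A (0.72), HIST1H3H (0.56), HIST1H2AJ (0.46), H2AFX (0.41) and H1F0 (0.31). Effects lower in Panc1 were found for HIST1H4H (-1.11), HIST1H2BJ (-1.1), HIST1H2BE (-0.91), HIST1H2AK (-0.6), H2AFY (-0.49), H2AFV (-0.38) and SLBP (-0.21). ASAP2 differed by -1.23, since its mRNA fell in Panc1 and was not called in MiaPaCa2. The calls for HIST3H2A, HIST1H3H, HIST1H2AJ and H2AFX were each lost when any of several single libraries was left out. Groups of 3 libraries are too small for a search for single outlying libraries.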

How the results depend on the processing

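Directions of named genes were compared only where the main fit or the alternative called the difference. These held under all alternatives run, except for H2AFY and MCM6. H2AFY between the wild-type lines was 0.0108 after quantile normalization (adjusted p = 0.819). MCM6 in Panc1 was 0.12 after the correction for GC content and length (adjusted p = 0.041), which was chosen after the data were seen. Differences that were not called could turn, as that of HIST1H2BC between the lines did without MiaPaCa2 knockout replicate 2. The variant ratio in Panc1, near 1, turned below 1 under some alternatives, the TPM scale among them. The cause of these turns was not tested. With a filter of 5 FPKM, which leaves 20 members among 9366 genes, Panc1 had 10 members higher and 2 lower, beside 2171 and 4166 genes. MiaPaCa2 had 8 higher and 5 lower, beside 1733 and 1935 genes. The difference between effects had 5 higher and 4 lower, beside 2075 and 3600 genes. The wild-type lines had 6 higher and 7 lower, beside 3793 and 4194 genes. With no filter the difference had 6 of 44 members higher, beside 3109 of 22641 genes. On the TPM scale it had 11 of 41 members lower, beside 5846 of 13340 genes. Leaving out single libraries gave 6 to 11 members lower in the difference, beside 4499 to 5060 of 13340 genes. The 11 were found without MiaPaCa2 knockout replicate 2. Members higher were then 13 to 17 in Panc1, beside 2621 to 3040 genes, and 11 to 16 in MiaPaCa2, beside 1754 to 2392. With each line fitted alone, Panc1 had 18 members higher and 4 lower, beside 3002 and 5732 genes. MiaPaCa2 fitted alone had 10 members higher and 6 lower, beside 1652 and 1578 genes. The HIST-named ratio was 1.70 in Panc1 after median-ratio rescaling. It was 1.36 in Panc1 and 1.41 in MiaPaCa2 without HIST1H2BK and HIST1H1C, an alternative added later, and 1.5 in MiaPaCa2 as a median over members. The variant ratio in Panc1 was 0.954 on the TPM scale, 1.11 after median-ratio rescaling and 1.06 as a median over members. Single calls near the threshold moved: among others HIST1H2BC in Panc1, H2AFV, HIST1H2AE and HIST2H2AC in MiaPaCa2, and HIST3H2A and HIST1H4H in Panc1 were each lost under at least 1 alternative. Replicate numbers do not pair the libraries by the labels, and the deviations of same-numbered libraries correlated at 0.017 to 0.078 in Panc1 and -0.165 to -0.002 in MiaPaCa2. With the replicate block 8444 genes were called in Panc1 and 4467 in MiaPaCa2, and the members gave 17 higher and 4 lower in Panc1 and 15 higher and 7 lower in MiaPaCa2. Read depth is unknown, so how far it limits members near 1 FPKM cannot be stated.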

Other observations

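The 35 HIST-named genes below the threshold, 11 of the 13 H4 and 5 of the 6 H1 symbols among them, summed to 9.08 ± 1.37 FPKM in MiaPaCa2 knockout and 9.41 ± 1.58 FPKM in MiaPaCa2 wild-type libraries. The pairs HIST2H2AA3 and HIST2H2AA4, and HIST2H4A and HIST2H4B, each a duplicated gene, had identical values in every library. Among chromosomes, genes on chromosome 2 had a median of -0.16 in MiaPaCa2 and those on chromosome 7 a median of -0.34 in Panc1.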
